A study of Mus musculus with 6 samples.

Results

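In all, 10 genes of the endoplasmic reticulum (ER) stress response were measured in testes of mice with a germ cell knockout of Sel1L and of heterozygous controls: the stress sensors Ern1 and Ern2, the IRE1 effector Xbp1, the membrane-bound factors Atf6 and Atf6b, and the CREB3 family members Creb3, Creb3l1, Creb3l2, Creb3l3 and Creb3l4. The genes were chosen by name, by their GENCODE mouse release 21 (M21) symbols, and make up 10 of the 55536 genes in the deposited count tables. Of the 10, 9 passed the filter on low counts and were tested, and Ern2 was not, because it had too few reads. SEL1L is the adaptor of the ubiquitin ligase HRD1 in ER-associated degradation, and the study asked whether its loss in male germ cells disturbs ER homeostasis.

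Testis RNA came from 7-week-old littermates, with 1 library per mouse and 3 mice per group. The KOStra8 genotype is Sel1L flox/∆ with Stra8-Cre, that is, 1 floxed and 1 deleted allele. The Stra8 promoter drives the Cre in male germ cells, so that Sertoli, Leydig and other somatic cells of the testis are not its target, and the study still detected SEL1L protein in spermatogonia. The labels describe the HETStra8 controls as Sel1L flox/∆ littermates and name no Cre for them, whereas the study groups Sel1L flox/+ mice with Stra8-Cre and Sel1L flox/∆ mice under that name. Whether a given control mouse carried Cre is therefore unknown here. A difference between these groups is a difference between 2 groups of 3 mice in whole tissue, where fewer cells of a type and less RNA per cell cannot be told apart.

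The genes belong to signalling branches that start at the ER membrane, of which those of IRE1 and ATF6 respond when unfolded proteins accumulate. IRE1, encoded by Ern1 and, in mucosal epithelia, by Ern2, is a kinase and endoribonuclease that cuts a short intron out of Xbp1 mRNA in the cytosol, and the shifted reading frame then encodes an active transcription factor. ATF6, its homologue ATF6B and the CREB3 family are held in the ER membrane, travel to the Golgi in transport vesicles and are released by the site-1 and site-2 proteases as nuclear basic leucine zipper factors. Creb3l4, also known as Tisp40, is a CREB3 family gene known for its expression in spermatids.

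The intron that IRE1 removes is shown because it bounds what gene counts can tell about this pathway. It was located in M21 transcript sequences as 26 bases between paired motifs of the form CNGCNG, at chr11:5524279-5524304 on the plus strand of GRCm38, inside coding exon 4 of transcript Xbp1-201. The motif rule also matched 26 bases in coding exon 1 of that transcript (chr11:5521116-5521141), and the stretch in exon 4 was taken because it is the known site of IRE1 cleavage. Capitals mark the excised bases, with 10 bases of exon on either side.
Xbp1: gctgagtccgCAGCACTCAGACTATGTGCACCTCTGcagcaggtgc
The sequence is contiguous in each of the 3 annotated transcripts that hold it, so that reads from spliced and unspliced Xbp1 mRNA were added to one count. The count of Xbp1 is therefore its total mRNA, and splicing was not analysed here. In PCR assays, the study found a very mild rise of Xbp1 splicing in KOStra8 testes and read it as slight activation of the IRE1 branch.

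Promoter windows show where the letters of a cAMP response element (CRE) half-site, TGACG on either strand, lie in Creb3l4 and Creb3l2, since factors of the CREB3 and CREM families recognise such elements. RefSeq promoters (GRCm38.p6, 250 bases before to 50 after a start site) matched 7 of the 10 genes with 10 start sites, 3 of them in Creb3l4. The windows read in the direction of each gene, with the half-site or its reverse complement in capitals. Creb3l4 held 3 half-sites, which began 222, 194 and 63 bases before a start site, and the one nearest to its start site is shown (window chr3:90242597-90242625, minus strand). That of Creb3l2 began 196 bases before its start site (window chr6:37442328-37442356, minus strand).
Creb3l4: gaagccttaagtCGTCAcaaagaaagagt
Creb3l2: ggcgttccccagTGACGtaaaagaccctc
The half-site was found in 4 of the 10 windows, those of Creb3l2, Creb3l3 and 2 of Creb3l4, against 20.8% of 32851 RefSeq mouse promoters. The full CRE (TGACGTCA, in 1.79% of all promoters), the XBP1-binding element UPRE (TGACGTGG, 0.676%), the ER stress elements ERSE (0.119%) and ERSE-II (0.037%) were in 0 of the 10, which says only that these letters are not in these windows. The outer parts of the ERSE were each in 5 of the 10, CCACG against 32.8% and CCAAT against 37.4% of all promoters.

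Libraries held 28875108 to 36526695 counted reads. Of 21465 genes tested with edgeR's quasi-likelihood F test (two-sided, Benjamini-Hochberg adjustment over all genes tested), 2 had both a fold above 2 and an adjusted p below 0.01, the cutoffs of the study, 5 (0.0233%) had an adjusted p below 0.05, and 12.3% gave an unadjusted p below 0.05. Sel1l itself was one of the 2, with 1413 to 1603 reads in HETStra8 and 636 to 846 in KOStra8 mice, and it fell by 1.07 on the log2 scale (edgeR adjusted p = 0.00061). When single mice were left out, the count past the cutoffs ran from 1, without KOStra8 mouse 2 or 3, to 44, without HETStra8 mouse 3, with 9 without HETStra8 mouse 1 and 4 without KOStra8 mouse 1. HETStra8 mouse 1 stood apart in the epididymal transcripts Crisp1 and Adam7, with 220 and 44 reads against at most 11 and 0 in the other mice. The other listed epididymal markers did not set it apart. Defb30 had 137 reads against 116 to 143, and Lcn5, Rnase9 and Lcn8 had at most 4 in any mouse. Between genes, levels are compared below as RPKM, that is, TMM-normalized CPM (counts scaled to a common library size) per kilobase of exon. Between groups, CPM are compared.

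Per length, the level of the 10 genes ran from 0.0333 to 168 RPKM in testis, and a single gene led the order. Creb3l4 averaged 168 RPKM over the 6 mice (range 157 to 181), above 98.8% of tested genes and 16.2 times the gene ranked next. Atf6b, at 10.4 RPKM (8.66 to 12.9), and Creb3, at 9.50 RPKM (7.97 to 11.3), followed, with overlapping ranges. Creb3l4 alone made up 83.1% ± 2.52 of the summed RPKM of the 10 genes in HETStra8 and 83.9% ± 0.949 in KOStra8 mice (SD, n = 3 each).

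Below these came the classical sensors and effectors. Xbp1 averaged 3.95 RPKM (3.13 to 4.98), Atf6 3.39 (2.88 to 3.67), Creb3l1 2.42 (1.84 to 3.52) and Ern1 2.40 (1.78 to 2.68), and within this run each gene overlapped with its neighbour in the order. Creb3l2 was lower at 1.06 RPKM (0.808 to 1.48), with a range that met neither Ern1 above it nor Creb3l3 below it. Creb3l3, at 0.129 RPKM (0.0316 to 0.240), and Ern2, at 0.0333 RPKM (0 to 0.0607), lay at the bottom with overlapping ranges. When the longest annotated transcript replaced the union of exons as length, Atf6b and Creb3 exchanged ranks, as did Creb3l1 and Ern1, and the other ranks held.

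**Figure D1:**
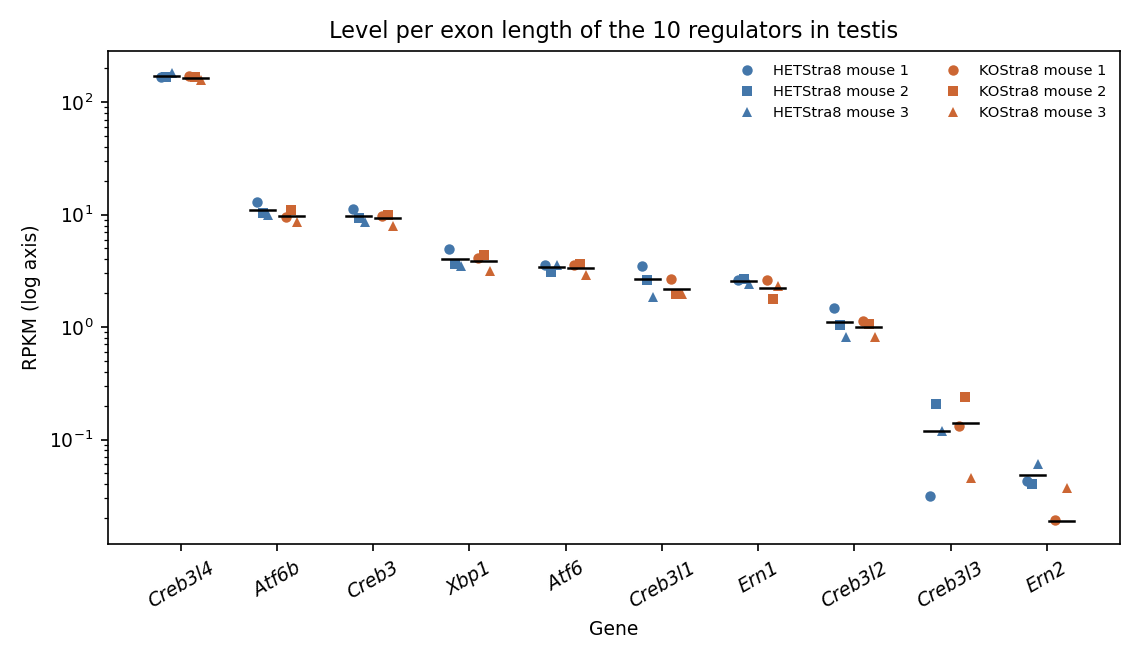
Level per exon length (RPKM, log axis) of each of the 10 genes in each of the 6 testes, with HETStra8 mice in blue, KOStra8 mice in orange and black bars for group means (n = 3). Creb3l4 lies between 157 and 181 RPKM in every mouse and no other gene exceeds 12.9, while the value of 0 for Ern2 in KOStra8 mouse 2 cannot be drawn on a log axis.

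None of the 9 tested genes passed the cutoffs between KOStra8 and HETStra8 testes, against 0.00932% of all tested genes. At an unadjusted p below 0.05 the count was again 0 of 9 by edgeR, where 12.3% of all genes tested gave one. The estimates were negative for 8 of the 9 and positive for 1, with a median log2 fold change of -0.08. Over all tested genes, 10405 of 21465 were positive, with a median of -0.0094. The 9 genes are not independent: Xbp1 correlated with Creb3 at r = 0.99 but with Creb3l4 at r = 0.10 (Pearson, log2 CPM, 6 mice). Fold changes were related to GC content in these libraries (Spearman rho = -0.46 across 21457 genes, which are not independent replicates). The 9 genes had a median of -0.05 after a correction of the counts for GC content and length. With 3 mice per group, the smallest p of the exact permutation test is 0.1.

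Ern1 (ENSMUSG00000020715, chr11:106394650-106487852, minus strand), the IRE1α sensor, measured 21.3, 21.9 and 19.8 CPM in HETStra8 mice 1 to 3 and 21.3, 14.6 and 19.1 CPM in KOStra8 mice 1 to 3. The groups overlapped, and KOStra8 mouse 2 was the low sample, at 74.1% of the mean of all 6 mice. The log2 fold change was -0.20 (SE 0.134, 95% interval -0.48 to 0.09, edgeR adjusted p = 0.571), and it was -0.05 without that mouse and -0.17 with the GC and length correction. The interval corresponds to 0.715- to 1.07-fold.

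Ern2 (ENSMUSG00000030866, chr7:122169893-122186207, minus strand), the IRE1β gene of gut and airway epithelium, had 4, 4 and 6 reads in the HETStra8 mice and 2, 0 and 4 in the KOStra8 mice. That is 14 reads per 3 HETStra8 libraries (exact Poisson 95% interval 7.65 to 23.5) and 6 per 3 KOStra8 libraries (2.2 to 13.1), intervals that overlap and cover counting error only. The CPM of all KOStra8 mice lay below those of all HETStra8 mice, an arrangement that 8.43% of tested genes showed, with 9.33% in the opposite arrangement, and the exact permutation p was 0.1, the smallest that 3 against 3 allows. No difference was detectable at this depth.

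Xbp1 (ENSMUSG00000020484, chr11:5520659-5525893, plus strand), the target of IRE1's endoribonuclease, measured 16.2, 11.9 and 11.4 CPM in HETStra8 and 13.3, 14.1 and 10.2 CPM in KOStra8 mice. HETStra8 mouse 1 was highest and KOStra8 mouse 3 lowest, and the groups overlapped. Its log2 fold change was -0.07 (SE 0.166, 95% interval -0.43 to 0.28, edgeR adjusted p = 0.894). Its sign turned to 0.10 without HETStra8 mouse 1, to 0.06 without KOStra8 mouse 3 and to 0.03 with the GC and length correction. Ern1 over Xbp1 in CPM was 1.63 ± 0.281 in HETStra8 and 1.502 ± 0.428 in KOStra8 mice (SD, n = 3 each, two-sided exact permutation p = 0.7).

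Atf6 (ENSMUSG00000026663, chr1:170704674-170867771, minus strand), the sensor whose cleaved fragment induces ER chaperones, measured 33.0, 28.7 and 33.2 CPM in HETStra8 and 32.7, 33.9 and 26.5 CPM in KOStra8 mice. The highest and the lowest sample were both KOStra8 mice. The log2 fold change was -0.03 (SE 0.113, 95% interval -0.27 to 0.21, edgeR adjusted p = 0.942), an interval of 0.830- to 1.16-fold, and the sign was not stable when single mice were left out (-0.09 to 0.07). With the GC and length correction the value was -0.11.

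Atf6b (ENSMUSG00000015461, chr17:34647146-34655074, plus strand), the ATF6 homologue with weaker transcriptional activity, measured 35.7, 28.7 and 27.4 CPM in HETStra8 and 26.03, 30.03 and 23.9 CPM in KOStra8 mice. HETStra8 mouse 1 again held the highest value and KOStra8 mouse 3 the lowest, with overlap between the other mice. The estimated log2 fold change was -0.20 (SE 0.123, 95% interval -0.46 to 0.06, edgeR adjusted p = 0.526). It was -0.08 without HETStra8 mouse 1 and -0.05 with the GC and length correction. Atf6 over Atf6b in CPM was 1.04 ± 0.148 in HETStra8 and 1.17 ± 0.0800 in KOStra8 mice (SD, n = 3 each, exact permutation p = 0.3).

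**Figure D2:**
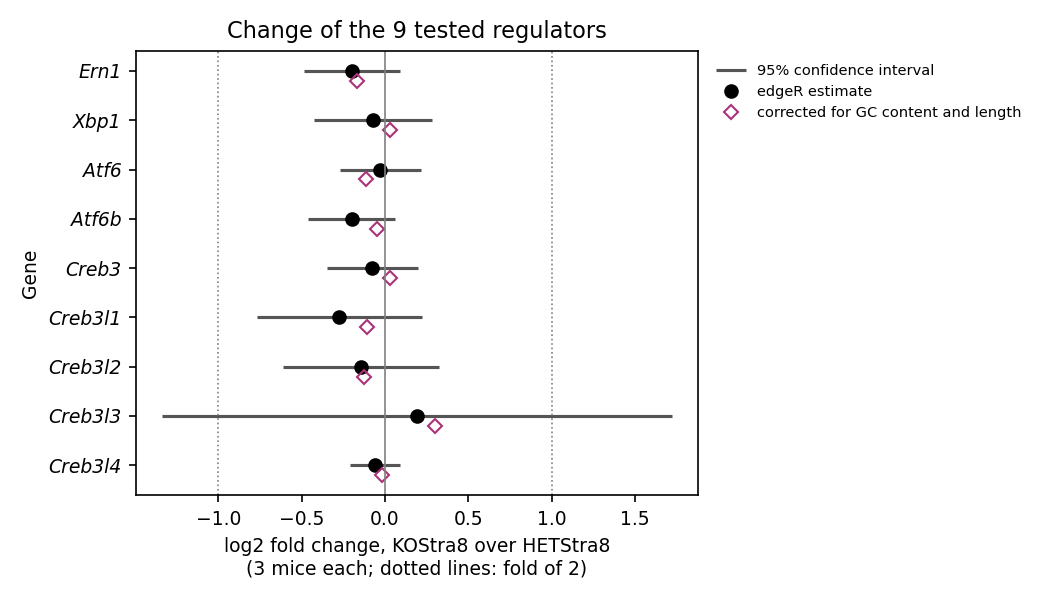
Log2 fold change of KOStra8 over HETStra8 testes (3 mice each) for the 9 tested genes, with the edgeR estimate as a filled circle, its 95% confidence interval as a bar and the estimate corrected for GC content and length as an open diamond. Every interval includes 0, and only that of Creb3l3, from -1.34 to 1.72, reaches the dotted lines at a fold of 2.

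Creb3 (ENSMUSG00000028466, chr4:43562332-43567060, plus strand), the founding member of its family, also called Luman, measured 26.8, 22.0 and 20.6 CPM in HETStra8 and 23.3, 23.6 and 18.9 CPM in KOStra8 mice. The highest and lowest samples were those of Xbp1 and Atf6b, HETStra8 mouse 1 and KOStra8 mouse 3. For Creb3 the log2 fold change was -0.08 (SE 0.128, 95% interval -0.35 to 0.20, edgeR adjusted p = 0.846), and it was 0.04 without HETStra8 mouse 1, 0.02 without KOStra8 mouse 3 and 0.03 with the GC and length correction. Creb3 shares 15.2% of its exon bases with Tln1 and 5.61% with Gba2, both on the opposite strand. The strand setting of the counting is not given in the sources used here, so that reads in these stretches may be uncertain. The log2 fold changes of Tln1 and Gba2 were -0.13 and -0.16 (edgeR adjusted p = 0.625 and 0.457).

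Creb3l1 (ENSMUSG00000027230, chr2:91982328-92024502, minus strand), known as OASIS and as a regulator of collagen secretion in bone, measured 9.15, 6.77 and 4.80 CPM in HETStra8 and 6.95, 5.07 and 5.09 CPM in KOStra8 mice. The HETStra8 mice spanned the whole range of the 6, from the highest to the lowest value. Its log2 fold change was -0.27 (SE 0.229, 95% interval -0.77 to 0.22, edgeR adjusted p = 0.661), but -0.02 without HETStra8 mouse 1, -0.47 without HETStra8 mouse 3 and -0.11 with the GC and length correction.

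Creb3l2 (ENSMUSG00000038648, chr6:37327255-37442146, minus strand), known as BBF2H7 and for the control of secretion in cartilage, measured 10.8, 7.54 and 5.94 CPM in HETStra8 and 8.24, 7.83 and 5.88 CPM in KOStra8 mice. Its samples were ordered much as those of Creb3l1, with HETStra8 mouse 1 highest. The log2 fold change was -0.15 (SE 0.217, 95% interval -0.61 to 0.32, edgeR adjusted p = 0.821), and it was 0.12 without HETStra8 mouse 1 and -0.13 with the GC and length correction. Creb3l1 over Creb3l2 in CPM was 0.851 ± 0.0449 in HETStra8 and 0.785 ± 0.120 in KOStra8 mice (SD, n = 3 each, exact permutation p = 0.6).

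Creb3l3 (ENSMUSG00000035041, chr10:81084324-81098874, minus strand), the liver and intestine factor CREB-H of lipid metabolism, had 3, 21 and 12 reads in HETStra8 and 14, 21 and 5 in KOStra8 mice. Both groups ran from a few reads to 21, with 36 reads per group (exact Poisson 95% interval 25.2 to 49.8) against 40 (28.6 to 54.5). The log2 fold change was 0.19 (SE 0.714, 95% interval -1.34 to 1.72, edgeR adjusted p = 0.936), so that folds from 0.395 to 3.30 could not be told apart at this depth, and the corrected value was 0.30.

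Creb3l4 (ENSMUSG00000027938, chr3:90237500-90243512, minus strand), the spermatid factor, was the most precisely measured of the 10, with 8136 to 10144 reads per library. It measured 279, 283 and 304 CPM in HETStra8 and 286, 281 and 264 CPM in KOStra8 mice. The highest value was a HETStra8 mouse, the lowest a KOStra8 mouse, and the other 4 lay between 279 and 286 CPM without separation by group. For Creb3l4 the log2 fold change was -0.06 (SE 0.0698, 95% interval -0.21 to 0.09, edgeR adjusted p = 0.768), an interval of 0.865- to 1.06-fold, and the exact permutation p was 0.5. With the GC and length correction the value was -0.02. Creb3l4 over Creb3 in CPM was 12.7 ± 2.18 and 12.7 ± 1.10 (SD, n = 3 each, exact permutation p = 1.0).

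The values of several genes followed the library. Of the 9 tested genes, Xbp1, Atf6b, Creb3, Creb3l1 and Creb3l2 were highest in HETStra8 mouse 1, as were 25.4% of all tested genes. Xbp1, Atf6, Atf6b, Creb3, Creb3l2 and Creb3l4 were lowest in KOStra8 mouse 3, as were 17.4% of all tested genes. In HETStra8 mouse 1, Creb3l1 reached 145%, Creb3l2 140%, Xbp1 126%, Atf6b 125% and Creb3 119% of the mean CPM of the 6 mice. Creb3l4 was at 98.6% in that mouse and varied least of the 10, with a coefficient of variation over the 6 mice of 4.57%, against 26.6% for Creb3l1, 23.5% for Creb3l2 and 16.7% for Xbp1. Without HETStra8 mouse 1, 4 of the 9 estimates were positive, with a median of -0.02.

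The marker sums of Sertoli and Leydig cells were also highest in HETStra8 mouse 1 and lowest in KOStra8 mouse 3. Most single markers did not follow in full. Of the Sertoli markers, only Clu and Amhr2 had both extremes in these mice, and of the Leydig markers only Cyp17a1, Cyp11a1 and Hsd3b6. Fshr and Wt1 were highest in KOStra8 mouse 1, and Gata4 in HETStra8 mouse 2. Cldn11, Rhox5 and Gata4 were lowest in KOStra8 mouse 1, and Fshr, Star and Hsd3b1 in KOStra8 mouse 2. Sox9, Insl3 and Lhcgr were lowest in HETStra8 mouse 2. The summed CPM of 8 Sertoli cell markers stood at 121% of its mean in HETStra8 mouse 1 and at 84.2% in KOStra8 mouse 3, and that of the Leydig cell markers at 139% and 76.1%. The peritubular myoid sum had its highest and lowest values in the same mice as these sums, at 116% and 92.4%. The macrophage sum was highest in HETStra8 mouse 2, at 116% against 114% in HETStra8 mouse 1, and lowest in KOStra8 mouse 3, at 81.3%. The endothelial sum went another way, highest in HETStra8 mouse 2 at 126%, against 106% in HETStra8 mouse 1. It was lowest in KOStra8 mouse 2 at 82.9%, next to 83.0% in KOStra8 mouse 3. The sums of round spermatid markers, at 102% and 95.7%, and of pachytene spermatocyte markers, at 105% and 96.6%, differed less between these mice. All germ cell sums varied little, as Creb3l4 did. Their coefficients of variation were 4.45% for round spermatids, 4.30% for elongating spermatids, 3.48% for spermatogonia and 3.16% for pachytene spermatocytes.

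Between groups, the Sertoli sum ran from 1031 to 1232 CPM in HETStra8 and from 856 to 978 CPM in KOStra8 mice without overlap. Of single tested genes, 8.43% were lower in KOStra8 mice without overlap. Clu was the largest part of this sum, with means of 775 CPM in HETStra8 and 639 in KOStra8 mice. Of the 8 Sertoli genes, 4 were lower at an unadjusted edgeR p below 0.05 (5.12% of all tested genes): Clu, Amhr2, Gata4 and Rhox5. After the GC and length correction it was 3, where 808 of 21465 genes were lower at that p. Sox9, Wt1, Fshr and Cldn11 overlapped between groups. The other somatic sums overlapped between HETStra8 and KOStra8: Leydig cells 534 to 812 and 446 to 578 CPM with Cyp11b1 at 0, myoid cells 361 to 440 and 350 to 387, macrophages 33.1 to 39.7 and 27.9 to 35.3, endothelium 47.1 to 64.7 and 42.5 to 56.4. Median log2 fold changes were -0.36 for macrophage, -0.30 for Leydig, -0.24 for endothelial, -0.21 for Sertoli and -0.15 for myoid markers. After the correction they were -0.23, -0.25, -0.15, -0.11 and -0.09. Among somatic markers beyond Sertoli cells, C1qb, Cd68, Star and Des were lower at an unadjusted edgeR p below 0.05, and only Star after the correction. C1qa, C1qb, Cd163, Cd68, Star, Tek and Eng were lower without overlap. Germ cell sums overlapped too, at 97.8 to 106 and 101 to 106 CPM for spermatogonia, 4398 to 4685 and 4325 to 4587 for pachytene spermatocytes, 1246 to 1354 and 1207 to 1300 for round spermatids and 15432 to 15526 and 13884 to 15588 for elongating spermatids. Epididymal markers summed to 3.89 to 12.8 CPM in HETStra8 and 3.56 to 4.80 in KOStra8 mice, with Lcn8 at 0. Defb30 alone measured 3.44 to 4.35 CPM in HETStra8 and 3.50 to 4.80 in KOStra8 mice. The part of these markers in the values of the ER stress genes was not tested.

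**Figure D3:**
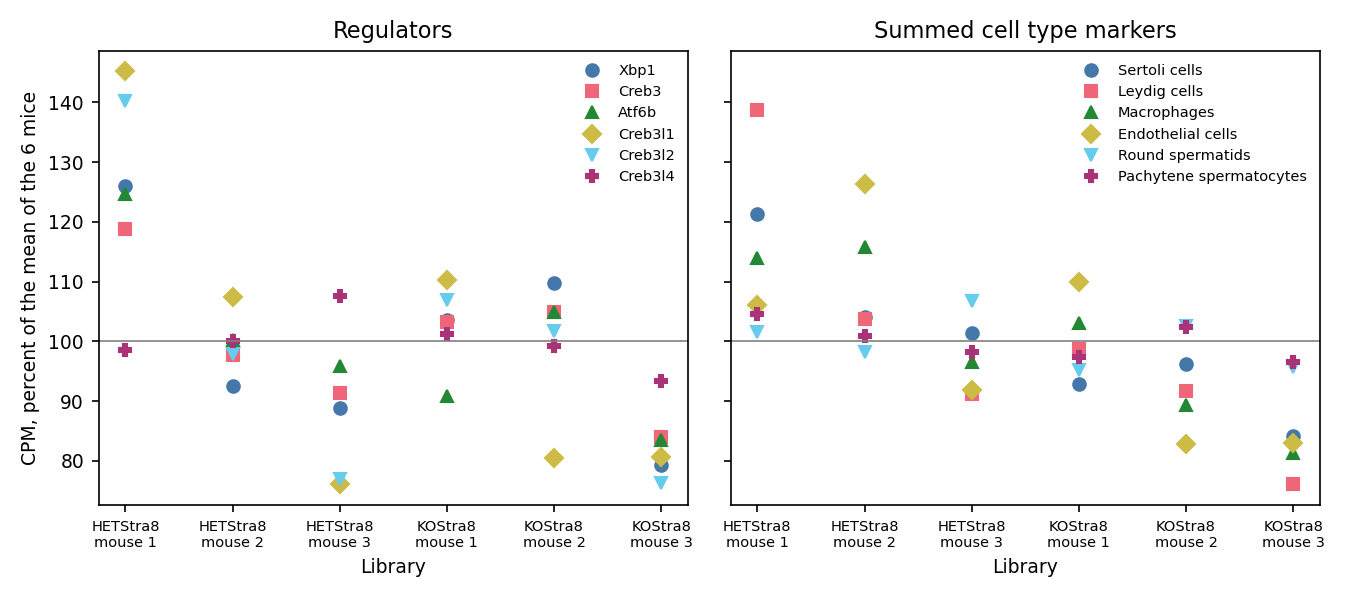
CPM in each of the 6 libraries as a percentage of the mean over the mice, for 6 of the genes on the left and for the summed markers of 6 cell types on the right. Creb3l1 (145%), Creb3l2 (140%) and the Leydig cell sum (139%) are highest in HETStra8 mouse 1, while Creb3l4 stays between 93.4% and 108% in every mouse.

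Partners and targets of the branches were followed in 7 lists of 90 genes in all, of which 86 were tested. Sel1l was the only list gene past the cutoffs, and it belongs to the lists of IRE1 partners and of ATF6 targets. Its adjusted p was 0.0132 without KOStra8 mouse 2 and 0.0120 without KOStra8 mouse 3, above the cutoff of 0.01 with edgeR. For all other list genes named here, edgeR's adjusted p was between 0.126 and 0.977, so that their unadjusted p-values give a ranking and no call. For comparison, such a p was found with a higher level in KOStra8 mice for 7.13% of all tested genes and with a lower level for 5.12%. In the fit corrected for GC content and length it was found for 828 higher and 808 lower of the 21465 genes.

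Among 19 IRE1 partners and regulators, an unadjusted p below 0.05 was reached by 4 with a higher and 5 with a lower level in KOStra8 mice, with a median log2 fold change of -0.06. The adaptor Nck1 (0.27, adjusted p = 0.256) and the stress kinase JNK1 gene Mapk8 (0.24, adjusted p = 0.343) had the largest positive values of these, and both were near 0 after the GC and length correction (0.01 and -0.03). Bak1, a pore-forming BCL2 family protein that binds IRE1, had the largest negative value after Sel1l (-0.45, adjusted p = 0.193, -0.31 corrected). After the correction, 0 were higher and 2 lower, Bak1 and Sel1l, with a median of -0.05.

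Of 16 XBP1 targets, 1 was higher and 1 lower, with a median of -0.02. These were Dnajc3, the co-chaperone p58IPK, at 0.28 (adjusted p = 0.281, 0.14 corrected) and Sec61a1, the translocon channel subunit, at -0.16 (adjusted p = 0.403, -0.04 corrected). After the correction the median was -0.11, with 0 higher and 2 lower, the translocon-associated genes Serp1 and Ssr1 (both -0.20, adjusted p = 0.570 and 0.483). RIDD substrates, mRNAs that IRE1 degrades, had a median of -0.24 over 8 genes, of which 1 was lower, the peptide-loading factor Tapbp (-0.21, adjusted p = 0.397, -0.07 corrected and -0.12 without HETStra8 mouse 1). The RIDD median was -0.11 after the correction, in which 0 of the 8 gave an unadjusted p below 0.05.

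Of 13 ATF6 targets, 3 were higher and 3 lower, with a median of -0.06. The higher ones were Crebrf, a regulator of CREB3 factors (0.35, adjusted p = 0.135), Hsp90b1, the ER chaperone GRP94 (0.28, adjusted p = 0.1503), and Hspa5. Hspa5, the ER chaperone BiP, was at 0.15 (edgeR adjusted p = 0.367, 0.09 corrected). All 3 were higher in KOStra8 mice without overlap between groups, as were 9.33% of all tested genes. Hspa5 did not pass the cutoffs, and the study reported BiP transcripts as not affected. In CPM, Hsp90b1 measured 494 ± 30.8 in HETStra8 and 599 ± 22.5 in KOStra8 mice (SD, n = 3 each). Crebrf went to 0.02 with the GC and length correction and Hsp90b1 to 0.13. Without HETStra8 mouse 3, the edgeR adjusted p of Hsp90b1 was 0.00524 at a log2 fold change of 0.34, short of the fold cutoff. Derl3, a derlin of ER-associated degradation, was at -0.26 (adjusted p = 0.360, -0.13 corrected). After the correction the median of the list was 0.02, and Hsp90b1 was the 1 higher and Sel1l the 1 lower gene.

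The release machinery of ATF6 and the CREB3 family was measured with 18 genes of site proteases and ER export, of which 0 were higher and 1 lower, with a median of -0.07. Mbtps1, the site-1 protease, measured 50.6 ± 4.24 CPM in HETStra8 and 45.2 ± 3.30 in KOStra8 mice (SD, n = 3 each, log2 fold change -0.16, edgeR adjusted p = 0.510). Mbtps2, the site-2 protease, measured 4.67 ± 0.404 and 4.77 ± 0.602 CPM (0.03, adjusted p = 0.966), and its estimate was -0.21 after the correction. The lower gene was Scap, the escort of the related SREBP factors (-0.36, adjusted p = 0.292, -0.22 corrected). After the correction the median was -0.09, with 0 higher and 2 lower, the vesicle coat genes Sec23a (-0.18, adjusted p = 0.577) and Sec23b (-0.26, adjusted p = 0.585).

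Of 12 CREB3 family targets, 8 were tested, with a median of -0.05, and 1 was lower, Herpud1, an ER membrane protein of the degradation complex that ATF6 also induces (-0.20, adjusted p = 0.292, -0.11 corrected). After the correction the median was -0.13, and the 1 lower gene was Sec23a. The 14 genes of the CREM circuit and of basic leucine zipper partners had a median of 0.01, with 1 higher and 2 lower. Crem, the master regulator of spermatid transcription, measured 174 ± 13.6 CPM in HETStra8 and 183 ± 2.01 in KOStra8 mice (0.07, adjusted p = 0.724). Its coactivator Fhl5, also called ACT, measured 174 ± 14.4 and 173 ± 6.61 CPM (-0.01, adjusted p = 0.977). Kif17, the kinesin that carries ACT, measured 570 ± 10.4 and 469 ± 13.7 CPM without overlap between groups (-0.28, adjusted p = 0.126, -0.13 corrected). Of all tested genes, 8.43% were lower in KOStra8 mice without overlap. Creb1 was higher (0.39, adjusted p = 0.252, 0.08 corrected) and the transcription factor gene Gtf2i lower (-0.21, adjusted p = 0.365, -0.11 corrected) at an unadjusted p below 0.05. After the correction the median was -0.03, with Yy1 higher (0.19, adjusted p = 0.564) and Kif17 lower.

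**Figure D4:**
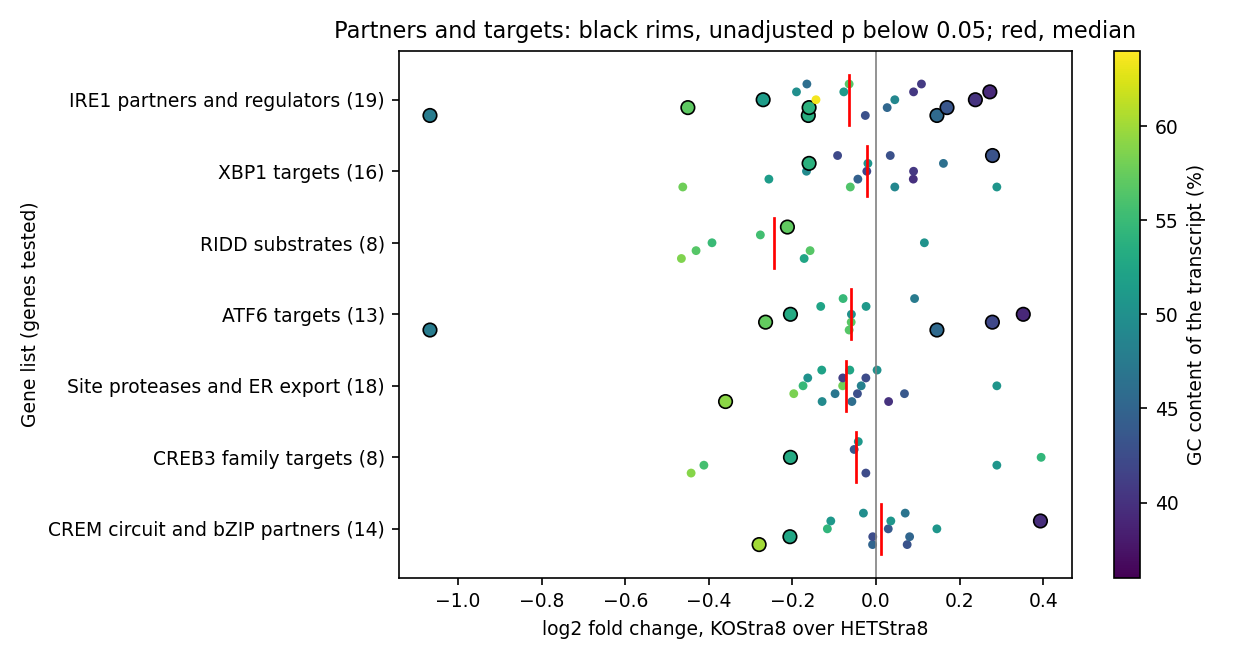
Log2 fold change of KOStra8 over HETStra8 testes for each tested gene of the 7 lists, coloured by the GC content of its transcripts, with red lines for the list medians and black rims for an unadjusted p below 0.05. Sel1l, drawn in 2 lists at -1.07, is the only gene past a fold of 2, and most rimmed genes on the right have low GC content.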

How the data were processed

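Testis RNA of 3 KOStra8 and 3 HETStra8 mice was analysed, with 1 library per mouse. The study describes poly(A)+ RNA, directional libraries and paired-end reads. For each mouse the authors deposited raw counts, the whole number of reads on each Ensembl gene, without normalization. The submitters' processing notes name GRCm38/mm10 and, with no role given, FastQC, Trimmomatic, STAR 2.7.1a, Picard 2.20.4, StringTie 2.0.4, featureCounts 1.6.0, HTSeq and ChIPseeker, and the strand setting is not given in the sources used here. All 55536 identifiers matched GENCODE M21, which gave symbols, positions, exon lengths and GC content.

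The fit was made with edgeR 4.0.16 under R 4.3.3 (low-count filter of filterByExpr, TMM, robust quasi-likelihood fit, genotype as the only term, two-sided F test, Benjamini-Hochberg adjustment over 21465 genes). The edgeR p-values set the difference between groups against the spread between these mice, which was estimated in part from all genes. Ratios were compared with exact permutation tests. No libraries agreed within sampling noise. Steps were tested on simulated data. The alternatives were DESeq2's size factors, library totals, no filter, at least 10 counts in every sample, the replicate number as a block, GC and length offsets (loess span 0.3, genes above a log2 CPM of 2, with 8 genes uncorrected), DESeq2 1.42.0, limma-voom with limma 3.58.1, an adjusted or an unadjusted p of 0.05, and leaving out each mouse.

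The genes and lists were chosen with earlier results of these data known. Named are the 10 genes, Sel1l, genes overlapping them, Mbtps1, Mbtps2, Crem, Fhl5, the 5 genes most correlated with Creb3l4, and from each list the 2 genes with the largest fold change in each direction at an unadjusted p below 0.05. Crisp1, Adam7, Serp1, Ssr1, Sec23a, Sec23b, Yy1, Hspa5 and the other single cell type markers were named after their values were seen.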

Additional observations from a re-analysis of the deposited data

How the results depend on the processing

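The count of 0 of 9 ER stress regulators past the cutoffs held under all alternatives run, and at an unadjusted p below 0.05 it was 0 except without HETStra8 mouse 3, where Atf6b and Creb3l1 gave one (smallest edgeR adjusted p = 0.228, in a fit where 19.8% of all genes gave one). DESeq2 gave an adjusted p for 8 of the 9, and Creb3l3 has no value with at least 10 counts in every sample. Over all genes, 39 passed with no filter, 5 with the replicate block, 14 with DESeq2, 5 at an adjusted p of 0.05, 2630 at an unadjusted p of 0.05 and 1 to 44 when single mice were left out, against 2. The cause was not tested. Of the pathway genes, 1 passed the fold and adjusted p cutoffs, and 0 to 1 did when single mice were left out. At an unadjusted p of 0.05 it was 19, and 9 to 28 when single mice were left out. Without HETStra8 mouse 3, Hsp90b1 and Dnajc3 came to adjusted p-values of 0.00524 and 0.00715, below a fold of 2, and with no filter Crebrf came to 0.00596.

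Signs turned with the GC and length correction for Xbp1 (0.028), Creb3 (0.027), Crem (-0.031), Mapk8 (-0.028) and Mbtps2 (-0.21), and with library totals for Fhl5 (0.0035). Leaving out single mice gave log2 fold changes of -0.16 to 0.10 for Xbp1, -0.093 to 0.074 for Atf6, -0.14 to 0.041 for Creb3, -0.32 to 0.12 for Creb3l2, -0.42 to 0.84 for Creb3l3, -0.064 to 0.065 for Fhl5 and -0.042 to 0.14 for Mbtps2. Ern1, Atf6b, Creb3l1 and Creb3l4 stayed negative under every alternative run. With the longest transcript as length, the order by level put Creb3 at 2, Atf6b at 3, Ern1 at 6 and Creb3l1 at 7. Of the log2 fold changes of 28 genes under these alternatives, 365 kept their sign and their side of an adjusted p of 0.01, 21 changed sign, and with the sign kept 3 came below that p, short of a fold of 2, and 2 (both of Sel1l) rose above it.

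Deviations from the group means of same-numbered mice correlated at -0.073, -0.119 and 0.176 over 13121 genes. Not every mouse correlated best with its own number, and HETStra8 mouse 1 and KOStra8 mouse 2 reached 0.250. Whether the mice were paired cannot be decided from these values, since deviations from a mean of 3 mice depend on each other. The litter of each mouse is not given in the sources used here. The replicate block left the count of regulators past the cutoffs at 0. Depth limits Ern2 and Creb3l3, and 3 mice per group limit every test.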

Other observations

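The genes with a level most like that of Creb3l4 over the 6 mice, by Pearson's r of log2 CPM, were A930002H24Rik (r = 0.995), Haus7 (r = 0.995), Gm31577 (r = 0.985), Gm5525 (r = 0.982) and Gm28881 (r = 0.981). Haus7, a subunit of the augmin complex of the spindle, averaged 22.5 CPM and the other 4 between 0.606 and 3.16 CPM. Of 21465 tested genes, 89 had an r above 0.9 and 22 an r above 0.95. The genes named are the extremes of that many correlations over 6 libraries, where unrelated genes can also reach a high r. How many would do so by chance was not tested. These values describe 6 libraries that share tissue and preparation, and the ordering rests on a gene that itself varied by 4.57% between mice.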
